A study of Homo sapiens with 10 samples.

Results

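Transcripts of the plasminogen activators, their cell-surface receptor and serpins expressed with them were followed from proliferation into replicative senescence in IMR90, a human fibroblast strain of fetal lung with a normal, finite lifespan. The set was defined by 8 gene symbols, and every probe set whose platform annotation gave exactly 1 of those symbols was taken. This found 10 of 54675 probe sets, for 6 of the 8 genes (of 19775 genes with such a probe set): PLAU, PLAT, PLAUR, SERPINE2, SERPINF1 and SERPINH1. SERPINB2 and SERPINB6 had no probe set under the annotation used and were not analysed here. Total RNA was measured on Affymetrix arrays, 5 of proliferating cells at 28 population doublings and 5 of senescent cells at 90 population doublings. All cells grew in 3% oxygen with 10% serum, and the senescent cells had been passaged until growth ceased and were held for a further 2 weeks. Growth state and population doublings differed together, so their effects cannot be told apart. Whether the 5 arrays of a state stand for 5 cultures is not given in the labels, so the tests weigh differences against a spread that may be technical only.

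Plasmin is a broad serine protease that dissolves fibrin and cuts matrix proteins and latent growth factors. It is made from plasminogen by urokinase, the product of PLAU, which works on the cell surface when bound to the receptor uPAR, the product of PLAUR, and by tissue-type activator, the product of PLAT, which works best on fibrin. Serpins are suicide inhibitors that trap serine proteases in a covalent complex, although some members of the family, among them the products of SERPINF1 and SERPINH1, do not inhibit proteases. In fibroblasts the system takes part in migration, matrix turnover and wound repair, and several of its components are counted among the secreted factors of senescent cells.

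In these cells the inhibitor SERPINE2 rose and SERPINF1 fell, both by a large factor. PLAT rose 2.08-fold, PLAUR and SERPINH1 fell by less than 2-fold, and PLAU showed no difference past the threshold. Without proliferating array 5, which stood apart, the PLAT difference was 0.75 on the log2 scale. The PLAT call was lost with a measure of RNA integrity as a covariate. Of the 10 probe sets, 3 rose and 5 fell at an adjusted p below 0.05 (limma over 32732 tested probe sets), and 2 did not pass. The same threshold was passed by 53% of all tested probe sets, 26.9% higher and 26.2% lower in senescent cells. Probe sets of a gene are not independent. By gene, 5 of 6 had a call on any of their probe sets, beside 61.3% of 12909 genes tested on their brightest probe set alone. The median difference was -0.08 over the members and 0.03 over all tested probe sets on the log2 scale. For 6 of the 10 probe sets the values of the groups did not overlap, as was the case for 44.5% of all tested probe sets. All 10 probe sets passed the filter on low values, and all differences below are senescent minus proliferating on the deposited log2 scale.

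The labelled cell type was checked against marker genes. All 12 fibroblast markers lay above their array's 60th percentile on every array, all 12 measured leukocyte markers lay below it, and so did 9 of 11 endothelial markers. Of 12 epithelial markers, 7 lay below it throughout, including CDH1 and KRT5, and KRT18, OCLN and SFTPC lay above it throughout. The mean of the epithelial list was 4.32 to 4.41 on proliferating and 4.06 to 4.21 on senescent arrays. Within it EPCAM fell from 6.49 ± 0.06 to 4.18 ± 0.40 (SD, n = 5 each; limma's adjusted p = 6.9e-07), KRT19 fell by 1.26 (limma's adjusted p = 0.0018) and KRT18 by 0.46, and OCLN and SFTPC rose by 0.73 and 0.34. Of the endothelial markers, TEK went from 9.90 to 10.52 on its brightest probe set (limma's adjusted p = 0.00014). Its other tested probe set went the other way, by -1.08 (limma's adjusted p = 0.0015). The mean of the TEK probe sets differed by -0.23 (limma's adjusted p = 0.11), and ROBO4 fell by 0.71. The part of these markers in the results was not tested. Array medians were 3.05 to 3.12, and the criteria of senescence named in the labels or title moved as labelled, with CDKN2A higher and CCNA2, CCNB1, CCNB2, CCNE2 and LMNB1 lower. The 3' minus 5' difference of the ACTB controls, a sign of RNA integrity, was 2.07 ± 0.14 for proliferating cells (SD, n = 5) and 2.32 ± 0.10 for senescent cells (SD, n = 5). With this value as a covariate, PLAT, 1 probe set of PLAUR, COL1A1 and OCLN lost their calls among the members, listed genes and markers named here for which that fit was computed. The ACTB values did not overlap between the groups (at most 2.19 on proliferating and at least 2.24 on senescent arrays). That fit therefore cannot well tell RNA integrity from growth state.

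RefSeq promoter sequences were matched by symbol for 6 of the 8 genes, among them SERPINE2, PLAUR and SERPINH1. The 250 bases before an annotated start are shown for 1 gene that rose and 2 that fell, all on build GRCh38.p14. Capitals mark matches on either strand to 4 motifs. The AP-1 motif was searched as TGANTCA, the box bound by NF-Y as CCAAT, the TATA box as TATAAA and the box bound by SP1 as GGGCGG, and no motif contains another. The SERPINE2 window, chr2:224031479-224031728 on the minus strand, precedes a start inside the annotated gene. The PLAUR window is chr19:43670170-43670419 on the minus strand, and the SERPINH1 window is chr11:75562003-75562252 on the plus strand.
SERPINE2: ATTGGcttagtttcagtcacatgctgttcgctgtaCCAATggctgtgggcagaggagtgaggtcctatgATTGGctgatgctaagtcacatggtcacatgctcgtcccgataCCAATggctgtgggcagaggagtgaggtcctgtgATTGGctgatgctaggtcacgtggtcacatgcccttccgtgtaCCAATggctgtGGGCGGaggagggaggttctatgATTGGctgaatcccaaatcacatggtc
PLAUR: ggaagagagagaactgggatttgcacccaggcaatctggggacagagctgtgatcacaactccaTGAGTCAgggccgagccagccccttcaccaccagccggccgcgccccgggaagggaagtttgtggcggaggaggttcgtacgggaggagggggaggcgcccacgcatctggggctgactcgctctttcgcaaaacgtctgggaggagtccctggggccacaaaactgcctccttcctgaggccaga
SERPINH1: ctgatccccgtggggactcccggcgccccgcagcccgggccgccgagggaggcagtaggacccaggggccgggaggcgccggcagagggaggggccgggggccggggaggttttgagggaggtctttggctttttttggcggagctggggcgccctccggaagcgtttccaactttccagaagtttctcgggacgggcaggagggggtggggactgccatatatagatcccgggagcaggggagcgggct
The SERPINE2 window held 7 matches to CCAAT and 1 to GGGCGG. Its plus-strand CCAAT matches, 215, 138 and 61 bases before the start, are followed by similar letters. The 7 matches thus lie in a repeated stretch and are not separate occurrences. Of all 35116 windows, 7, or 0.0199%, held at least 7 CCAAT matches, a cut-off set as the most in any member window. The window of the other annotated SERPINE2 start held 0 matches to CCAAT and 2 to GGGCGG, 230 and 183 bases before the start. The PLAUR window held 1 match to the AP-1 letters, which begins 186 bases before the start, and 6.57% of all windows hold such a match. The SERPINH1 window shown held none of the 4 motifs, whereas that of its other annotated start held 1 match to CCAAT, 27 bases before the start, and 1 to GGGCGG, 148 bases before it. CCAAT occurred in 32%, TATAAA in 10.7% and GGGCGG in 42.6% of all windows. The sequences were chosen after the matches and the expression values were seen, and a match describes letters, not a bound site.

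PLAU, the gene of urokinase, was read by 2 probe sets and showed no difference past the threshold on either. Probe set 205479_s_at gave 13.22, 13.17, 13.29, 13.26 and 13.10 on proliferating arrays 1 to 5 and 13.26, 13.35, 13.31, 13.28 and 13.22 on senescent arrays 1 to 5. The groups overlapped, and both lay near the 99th percentile of their arrays (98.9 in each). The difference was 0.08 (SE 0.05, 95% interval -0.03 to 0.18, limma's adjusted p = 0.20, exact permutation p = 0.0952). Probe set 211668_s_at gave 9.58 ± 0.13 in proliferating and 9.67 ± 0.17 in senescent cells (SD, n = 5 each), a difference of 0.09 (95% interval -0.11 to 0.30, limma's adjusted p = 0.42). The intervals of this fit reached at most 0.30 in size, on a spread that may be technical only. With the ACTB covariate, 211668_s_at differed by 0.23 (SE 0.13, limma's adjusted p = 0.21). The sign of both estimates turned when arrays were centred on housekeeping genes (-0.08 and -0.06). Of the 21 housekeeping genes used, 5 rose and 9 fell in the main fit, so they were not a stable reference.

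PLAT, the gene of tissue-type plasminogen activator, was read by 1 probe set and rose. It gave 12.14, 12.07, 12.01, 12.27 and 10.57 on proliferating arrays 1 to 5 and 12.90, 12.86, 12.88, 12.87 and 12.84 on senescent arrays 1 to 5. The senescent values lay close together and above every proliferating value, while proliferating array 5 stood apart below the other 4. The difference was 1.06 (SE 0.29, limma's adjusted p = 0.0099). The exact permutation p was 0.00794, the minimum for the 252 possible assignments. Without proliferating array 5 the difference was 0.75 (SE 0.05, limma's adjusted p = 3.8e-06). The call was lost with the ACTB control as a covariate, where the difference was 0.99 (SE 0.46, limma's adjusted p = 0.12). Proliferating array 5 was the lowest of its group for 27.7% of all tested probe sets, and the other proliferating arrays for 13.8% to 26.8%.

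PLAUR, the gene of the urokinase receptor, fell on all 3 of its probe sets. The brightest, 210845_s_at, gave 11.59, 11.41, 11.42, 11.54 and 11.60 on proliferating arrays 1 to 5 and 11.18, 11.24, 11.33, 11.31 and 11.33 on senescent arrays 1 to 5. The groups did not overlap, but the gap between them was only 0.08, and the difference was -0.23 (SE 0.05, limma's adjusted p = 0.0045, exact permutation p = 0.00794). Probe set 211924_s_at went from 10.57 ± 0.18 to 10.22 ± 0.13 (SD, n = 5 each), a difference of -0.35 (SE 0.09, limma's adjusted p = 0.010). Its call was lost with the ACTB covariate (-0.23, limma's adjusted p = 0.25). Probe set 214866_at went from 9.68 ± 0.27 to 9.20 ± 0.12 (SD, n = 5 each), a difference of -0.48 (SE 0.12, limma's adjusted p = 0.0085). The last 2 probe sets overlapped between the groups, and the 3 estimates correspond to levels 1.18-fold, 1.27-fold and 1.39-fold lower. The mean of the 3 probe sets differed by -0.35 (SE 0.07, limma's adjusted p = 0.001).

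**Figure D1:**
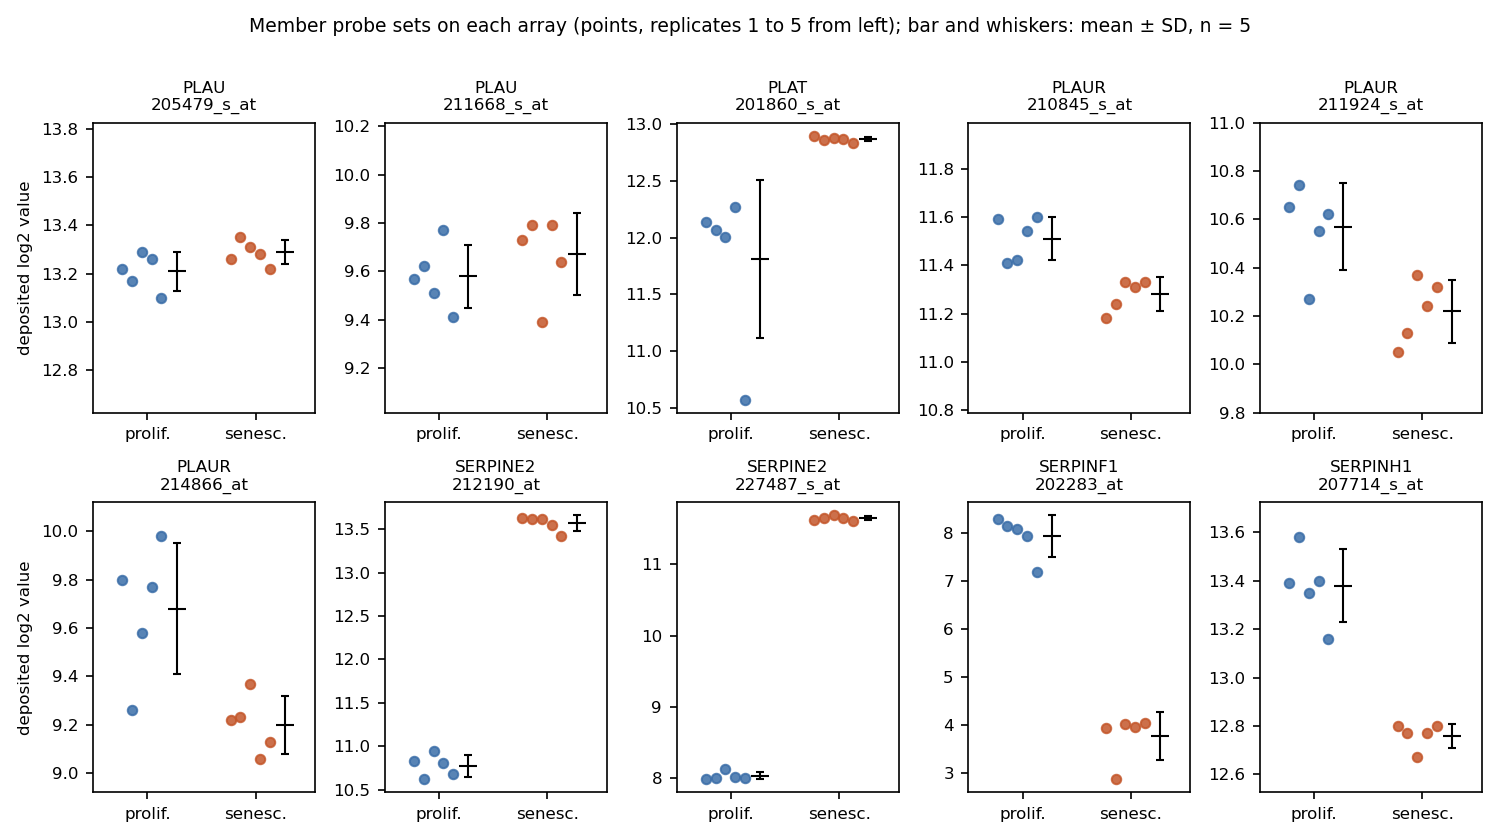
Deposited log2 values of the 10 member probe sets, with a panel per probe set and its own vertical axis, a point per array (blue proliferating, orange senescent) and bars for the mean ± SD of 5 arrays. The groups are far apart for SERPINE2 and SERPINF1, overlap for PLAU, and in PLAT proliferating array 5 at 10.57 lies below the other arrays.

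SERPINE2 encodes protease nexin-1, a secreted inhibitor of thrombin, urokinase and other trypsin-like proteases that acts when bound to matrix glycosaminoglycans. It rose on both probe sets, and the groups were far apart. Probe set 212190_at gave 10.83, 10.62, 10.94, 10.81 and 10.68 on proliferating arrays 1 to 5 and 13.63, 13.62, 13.62, 13.55 and 13.42 on senescent arrays 1 to 5. The gap between the highest proliferating and the lowest senescent value was 2.48, and the difference was 2.79 (SE 0.07, 6.93-fold, limma's adjusted p = 7.0e-10). Probe set 227487_s_at gave 7.99, 8.00, 8.12, 8.01 and 8.00 on proliferating arrays 1 to 5 and 11.63, 11.66, 11.69, 11.66 and 11.61 on senescent arrays 1 to 5. Its difference was 3.63 (SE 0.04, 12.3-fold, limma's adjusted p = 6.0e-12). The exact permutation p was 0.00794 for each. The intervals of the estimates, 2.64 to 2.95 and 3.54 to 3.71, did not overlap, so the size of the rise depended on the probe set. These values do not separate transcripts by start site, including the start behind the SERPINE2 window shown above. In size these differences were at the 97th and 98.5th percentile of all tested probe sets.

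SERPINF1 encodes pigment epithelium-derived factor, a secreted serpin that does not inhibit proteases and is known to restrain blood vessel growth and to be needed for bone matrix. It had the largest difference among the members. Its probe set gave 8.30, 8.15, 8.09, 7.95 and 7.19 on proliferating arrays 1 to 5 and 3.94, 2.88, 4.03, 3.97 and 4.06 on senescent arrays 1 to 5. Every senescent value lay below every proliferating value, with a gap of 3.14 between the groups. The difference was -4.16 (SE 0.27, 17.9-fold lower, limma's adjusted p = 5.4e-07, exact permutation p = 0.00794). The senescent values all lay below the 60th percentile of their arrays (4.64 to 4.77), and the size of a fold against such low signal depends on the background correction. The difference was at the 98.9th percentile in size of all tested probe sets. In RNA of whole cultures, fewer cells making a transcript and less of it per cell cannot be told apart.

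SERPINH1 encodes HSP47, a serpin without inhibitory function that stays in the endoplasmic reticulum and helps procollagen to fold. It was among the brightest probe sets of the array in both states (99.1 and 98.1 as mean percentile) and fell. The values were 13.39, 13.58, 13.35, 13.40 and 13.16 on proliferating arrays 1 to 5 and 12.80, 12.77, 12.67, 12.77 and 12.80 on senescent arrays 1 to 5. The groups did not overlap, and the difference was -0.61 (SE 0.07, 1.53-fold lower, limma's adjusted p = 3.9e-05, exact permutation p = 0.00794).

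**Figure D2:**
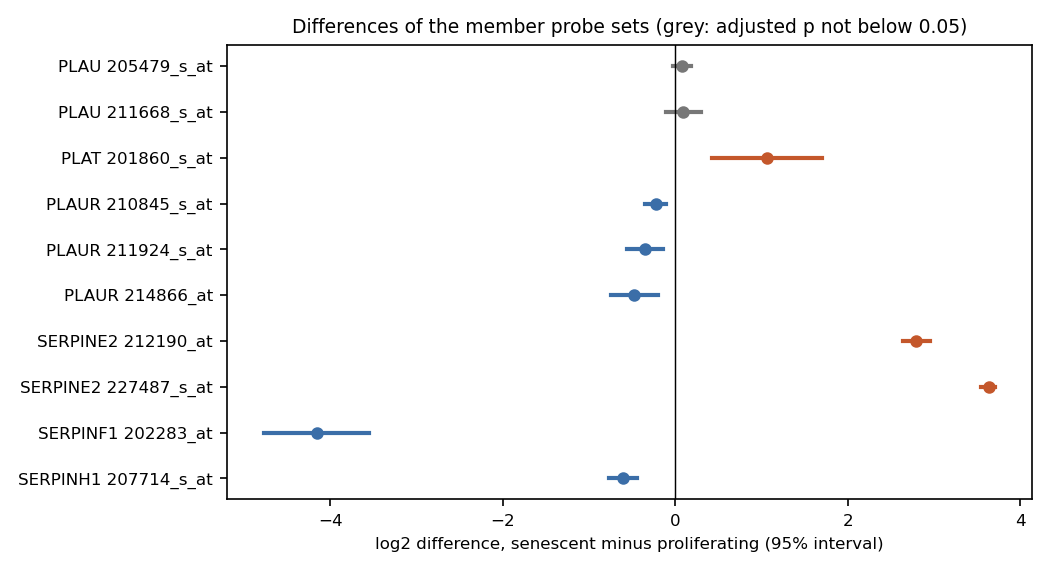
Differences of the member probe sets in log2 units (points) with 95% intervals of the limma fit (lines), orange for higher, blue for lower and grey for probe sets not past the adjusted threshold. SERPINE2 lies at 2.79 and 3.63, SERPINF1 at -4.16, and both PLAU estimates lie close to 0 with intervals that include it.

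**Figure D3:**
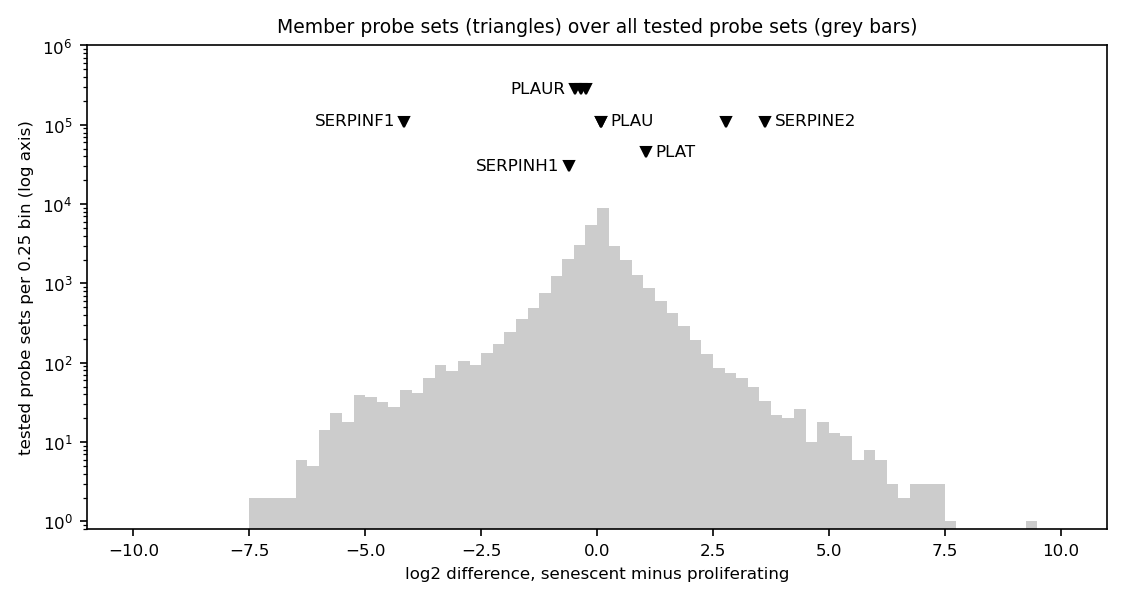
Numbers of all tested probe sets (grey bars, logarithmic vertical axis) by their log2 difference in bins of 0.25, with the member probe sets as triangles placed at their difference and at an arbitrary height. SERPINE2 and SERPINF1 lie in the thin tails, and PLAU, PLAUR and SERPINH1 lie in the dense centre.

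Related genes were taken from 6 lists of components that work with the members, with 1 probe set per gene. Among all 12909 genes tested, 61.3% passed the adjusted threshold, 31% higher and 30.3% lower, with a median difference of 0.04. These were 4004 higher and 3909 lower genes. After housekeeping centring 2803 were higher and 4693 lower, and with the ACTB covariate 3034 were higher and 3342 lower. The list counts under these settings below are to be read beside those numbers. Plasminogen itself, PLG, did not pass the filter on low values. Of 17 tested genes for plasminogen receptors, clearance receptors and cofactors, 5 rose and 4 fell, with a list median of 0.04 (3 rose and 4 fell after housekeeping centring, and 4 and 4 with the ACTB covariate). ENO1, a glycolytic enzyme that also serves as a plasminogen receptor, fell by 1.51, and S100A10, the partner of annexin A2 in binding plasminogen, fell by 0.52. VLDLR, a receptor that takes up complexes of urokinase and its inhibitors, fell by 1.18, whereas LRP1, the main clearance receptor of such complexes, rose by 0.70 (SE 0.19, limma's adjusted p = 0.0092) on its brightest probe set, by 1.92 on its other probe set (limma's adjusted p = 5.4e-05) and by 1.31 as their mean. MRC2, the collagen receptor that associates with uPAR, rose by 0.57 (SE 0.09, limma's adjusted p = 0.00031). ANXA2 differed by 0.03 (limma's adjusted p = 0.56) on its brightest probe set and by -0.25 as the mean of its probe sets (limma's adjusted p = 0.00071).

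Of 10 tested serpins outside the set, 4 rose, 1 fell and 5 did not pass, with a list median of 0.38. The counts were the same after housekeeping centring and with the ACTB covariate. With no filter on low values, 5 of 26 rose and 1 fell, with a list median of 0.03, beside 0.02 over all genes. SERPINI1, the gene of neuroserpin, an inhibitor of tissue-type activator, went from 4.24 ± 0.18 to 9.66 ± 0.16 (SD, n = 5 each). That rise was 5.42 (SE 0.10, limma's adjusted p = 6.2e-11), from values below the 60th percentile of all proliferating arrays. SERPIND1, the gene of the thrombin inhibitor heparin cofactor II, went from 2.63 ± 0.18 to 5.20 ± 0.35 (SD, n = 5 each), a rise of 2.57. Only 2 of its 5 proliferating values exceeded the 40th percentile of their array, so the size of this fold depends on the background correction. SERPINB8 rose by 1.06. SERPINB1 rose by 0.57 on its brightest probe set and by 0.47 on another. Its remaining tested probe sets differed by 0.11 and -0.12 without passing (limma's adjusted p = 0.21 and 0.24), and the mean of its probe sets by 0.26. SERPINB9, the intracellular inhibitor of granzyme B, fell by 2.36 (SE 0.11, limma's adjusted p = 2.8e-08), while the difference on its other tested probe set, 0.12, missed the threshold and that of their mean was -1.12.

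Among 13 tested genes of proteins cut by plasmin or the activators, 5 rose and 2 fell, with a list median of 0.02 (2 rose and 3 fell after housekeeping centring, and 4 and 2 with the ACTB covariate). MMP3, stromelysin, rose by 4.82 from low values, and the laminin chain gene LAMB1 rose by 0.80. LAMA1 fell by 1.73, from 5.55 ± 0.23 to 3.82 ± 0.39 (SD, n = 5 each), which lay below the 60th percentile of all senescent arrays, so that the size of its fold depends on the background correction. MMP1, interstitial collagenase, fell by 0.31. Its call was lost with the replicate block (limma's adjusted p = 0.082), with no filter (0.050), and without any 1 of proliferating arrays 1, 4 or 5 or senescent array 2 (0.053, 0.064, 0.069 and 0.051). The growth factor genes HGF, PDGFC and PDGFD, whose products are activated by such cleavage, differed by -0.08, 0.02 and -0.09 and did not pass (limma's adjusted p = 0.33, 0.85 and 0.56).

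Of 11 tested genes for thrombin receptors and the control of clotting at the cell surface, 7 rose and 1 fell, with a list median of 0.28 (4 rose and 1 fell after housekeeping centring, and 7 and 1 with the ACTB covariate). PROS1, the gene of the anticoagulant protein S, went from 7.04 ± 0.21 to 10.38 ± 0.11 (SD, n = 5 each), a rise of 3.34 (SE 0.10, limma's adjusted p = 1.3e-09). Its relative GAS6, a ligand of the TAM receptors, rose by 1.57, and the endothelial protein C receptor gene PROCR by 0.83. TFPI2, an inhibitor of plasmin and other serine proteases, fell by 1.73 (SE 0.14, limma's adjusted p = 2.2e-06). The thrombin receptor gene F2R differed by 0.05 and did not pass (limma's adjusted p = 0.41).

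Genes that act on collagen beside SERPINH1 moved in both directions. Of 22 tested procollagen and collagen-folding genes, 9 rose and 5 fell, with a list median of 0.06 (5 rose and 8 fell after housekeeping centring, and 9 and 3 with the ACTB covariate). The prolyl hydroxylase gene P3H2 rose by 2.20, the foldase gene FKBP14 by 1.23 and the channel gene TMEM38B by 0.93. P4HA3, a subunit of prolyl 4-hydroxylase, fell by 2.08 on its brightest probe set, while its other tested probe set differed by -0.01 (limma's adjusted p = 0.96) and the mean of its probe sets by -1.05. COL3A1 fell by 0.50. COL1A1 fell by 0.20, a call lost in 9 of 20 alternatives, with the ACTB covariate (limma's adjusted p = 0.13), with centring on the median of tested probe sets (0.066), as the mean of its probe sets (0.084), without proliferating 2 and senescent 5 together (0.10), and without any 1 of proliferating arrays 1, 2 or 4 or senescent arrays 2 or 5 (0.053 to 0.059). Of 4 tested genes for reported receptors of the SERPINF1 protein, PLXDC2 rose by 1.75 and LRP6 by 1.15, and PNPLA2 and ATP5F1B differed by 0.14 and 0.06 without passing (limma's adjusted p = 0.078 and 0.40). After housekeeping centring, and with the ACTB covariate, 2 of the 4 rose. With no filter on low values, 2 of 5 rose and 1 fell, with a list median of 0.14.

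**Figure D4:**
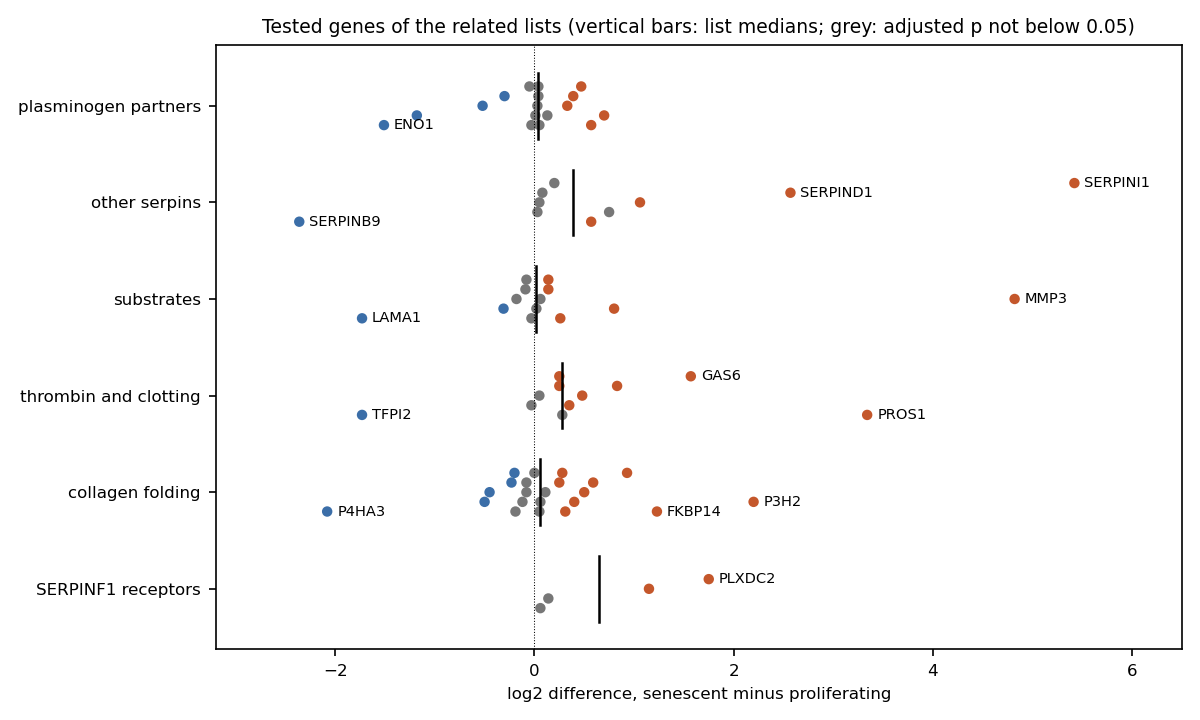
Log2 differences of the tested genes of the 6 related lists, a point per gene (orange higher, blue lower, grey not past the adjusted threshold), with vertical bars at the list medians and names for genes beyond 1.2 in size. The medians lie between 0.02 and 0.64, and SERPINI1 at 5.42 and MMP3 at 4.82 lie furthest to the right.

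Likeness of pattern was described by the Pearson correlation with each member's brightest probe set over the 10 arrays, among all tested genes. SERPINE2 was matched most closely by ASAH1 and TGFBR2, and 1520 genes had a correlation above 0.95 with it. After the group means were subtracted, these correlations were 0.91 and 0.89. For SERPINF1, where 1013 genes exceeded 0.95, SULF1 and PEG10 came first (0.993 each, and 0.82 and 0.80 after the subtraction). SERPINH1 was closest to SDC4 (0.991) and TRBC1 (0.988), with 0.92 and 0.90 after the subtraction. PLAT was closest to BDKRB2 (0.984) and NFKBIZ (0.982), with 20 genes above 0.95, and 0.97 and 0.98 after the subtraction. Arrays of a group share their state, and the low value of proliferating array 5 weighs on the PLAT correlations. For PLAUR the closest were LOC105372255 (0.986) and EID2B (0.982), with 0.95 and 0.96 after the subtraction. For PLAU, for which no gene exceeded 0.95, they were COL4A6 (0.928) and NADK2 (0.920), with 0.93 and 0.90 after the subtraction.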

How the data were processed

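Total RNA was labelled with biotin and hybridised to Affymetrix arrays, per the labels' protocols. The authors deposited 1 log2 value per probe set and array, and Partek and GCRMA appear in the submitters' processing notes. Their role, order and settings were not stated there. The base of the logarithm was inferred from the range of values. Scanner files, detection calls and scan dates were not used here, so no scan batch was tested.

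Gene symbols came from the platform annotation, checked by gene identifier against RefSeq (GRCh38.p14). Of the probe sets, 62 controls were left out, 41091 had 1 symbol, 1801 several and 11721 none. Testing was limited to probe sets whose value exceeded the 40th percentile of the array on 5 or more of the 10 arrays. The difference was tested with limma 3.58.1 in R 4.3.3 (lmFit, then eBayes; two-sided), with Benjamini-Hochberg adjustment over all 32732 tested probe sets, threshold 0.05. Lists used the brightest tested probe set per gene, adjusted over 12909 genes. Exact permutation tests, two-sided, ran over 252 assignments. The scripts were tested on simulated data. Python 3.11.15 with matplotlib 3.10.9 drew the plots.

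The members and lists were chosen with earlier results of these data known. Genes named were all members, up to 4 called genes with the largest differences per list, SERPINB8, SERPINI1, PLG, LRP1 and ANXA2, and 2 genes per member for likeness. S100A10, SERPINB1, HGF, PDGFC, PDGFD, F2R, COL3A1, COL1A1, PNPLA2, ATP5F1B and the epithelial and endothelial markers were chosen after their values were seen. Alternatives were other filters, centring on tested probe sets or on 21 housekeeping genes, a replicate block, quantile normalisation, a robust eBayes fit with trend, the ACTB control as a covariate, averaging the probe sets of a gene, and leaving out arrays.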

Additional observations from a re-analysis of the deposited data

Results flagged for a closer look

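In 7 of 74 groups of 5 arrays, the lowest or highest value stood apart from the rest by more than Dixon's 95% limit (a gap over 0.71 of the range), which chance alone gives in about 1 group of 20. Among the members, PLAT was lowest on proliferating array 5 at 10.57, against 12.01 for the next array, and SERPINF1 was lowest on senescent array 2 at 2.88, against 3.94. The 227487_s_at probe set of SERPINE2 was highest on proliferating array 3 at 8.12 (next 8.01), and SERPINH1 was lowest on senescent array 3 at 12.67 (next 12.77). Among related genes, ENO1 was highest on proliferating array 2 at 12.54, MRC2 was lowest on senescent array 5 at 11.47, and PROS1 was lowest on senescent array 5 at 10.19.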

How the results depend on the processing

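Of 358 values for members and lists under other settings, 353 kept their direction and their side of the threshold, or for counts stayed within 1.5 times. Other filters, the replicate block and the robust eBayes fit cannot alter the estimate of a member probe set. Those settings could change only its side of the threshold. Averaging probe sets likewise cannot alter the estimate of a member with 1 probe set. List counts added the genes called in either direction, so they do not show a change of direction within a list. After housekeeping centring the collagen list went from 9 higher and 5 lower to 5 and 8. The substrate list went from 5 and 2 to 2 and 3, and both were counted as kept. Centring on housekeeping genes moved the median of all tested genes by -0.16. It turned the PLAU estimates to -0.08 and -0.06, neither past the threshold, and left 5 called clotting genes instead of 8. The 21 housekeeping genes themselves moved, with 5 higher and 9 lower in the main fit. With the ACTB control as a covariate, PLAT at 0.99 and the 211924_s_at probe set of PLAUR at -0.23 no longer passed; the cause was not tested. Leaving out single arrays changed no call among members, and PLAT ranged from 0.75 to 1.17. Among single related genes, ANXA2 turned to -0.13 with housekeeping centring, -0.01 with the ACTB covariate and -0.25 as the mean of its probe sets, and TEK turned to -0.23 as the mean of its probe sets. MMP1 lost its call in 6 and COL1A1 in 9 of 20 alternatives, and SFTPC lost its call with housekeeping centring (0.19). Arrays with the same replicate number showed little shared deviation (correlations -0.06 to 0.09), and 4 of 10 arrays correlated best with their own number. The labels do not say whether the numbers pair the samples, and these values cannot settle it. With a replicate block 16648 instead of 17360 probe sets passed, and 8 member probe sets still did, PLAT at 1.06 with limma's adjusted p = 0.015. The 5 arrays per group limit the precision, and the low senescent signal of SERPINF1 limits how well its fold is known.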
